A study of Homo sapiens with 20 samples.

Results

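NCI-H520 is an established human cell line from a squamous carcinoma of the lung. Its transcript levels were compared between a prexasertib-resistant line and the parental line it came from, with 3 arrays of resistant cultures and 3 arrays of parental cultures, which are 6 of the 20 arrays of the study. All transcript clusters of the array that carried exactly 1 gene symbol were followed, 17709 of 21448, a cluster being the set of probes that measures the transcripts of a gene. The resistant line, NCI-H520R, had been derived by growing parental cells in stepwise higher concentrations of prexasertib, which inhibits the cell cycle checkpoint kinase CHK1. The sources used here do not say whether the drug was in the medium when RNA was taken, so direct effects of the drug cannot be told apart from acquired differences. The arrays of a group are labelled as biological replicates. All resistant arrays came from 1 resistant line, so the errors below give the spread between cultures and not the spread between independently selected lines. The other arrays of the study held the rhabdomyosarcoma lines SJCRH30 and Rh41, each also as a resistant line and a parental line. SJCRH30 is used below only to show where NCI-H520 differs. Its cultures were started from mouse xenografts, and per the study's methods resistance arose in treated mice and not in culture, so the 2 resistant lines differ in how they were selected as well as in tumour type.

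The surface, secretory, signalling and metabolic genes of a tumour line set how it adheres, what it releases, which ligands it can answer and from which nutrients it builds membranes, proteins and nucleotides. Squamous lung carcinoma is known for SOX2 and FGFR1 gain, for desmosomal and keratin genes of stratified epithelium, and often for active NRF2 (NFE2L2), the transcription factor that drives glutathione and thioredoxin genes. The response to low amino acid supply runs through another transcription factor, ATF4. It raises genes of amino acid uptake and synthesis and the tRNA synthetases when uncharged tRNA builds up.

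Levels are the deposited log2 values of the arrays and each change is resistant minus parental on that scale. A gene is said to have risen or fallen where limma gave a Benjamini-Hochberg adjusted p under 0.05 over all 17709 clusters and the size of the change was above 1.5-fold. SE stands for limma's moderated standard error of a change. Each SE and adjusted p below comes from this fit unless another fit or an alternative is named beside it. A mean log2 value under 5 is called low signal, which was the case in both groups for 5894 clusters, in resistant cultures alone for 429 and in parental cultures alone for 467. The size of a change into or out of low signal is uncertain. The furthest genes of each list, of each class and over all clusters were chosen among those whose arrays did not overlap between the groups. For these genes the lack of overlap given below follows from that choice and is no added support. Arrays of 1 group correlated at 0.988 to 0.991 and arrays of different groups at 0.963 to 0.967, so the groups stood apart and no array stood apart from its own group. The values of these arrays spread wider than those of Rh41, with standard deviations of 2.99 and 1.99. No source used here says which scale holds true log2 ratios, so a fold is a fold on the deposited scale. As an alternative the values were mapped onto the scale of the Rh41 arrays, called the Rh41 scale below.

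Checked against its label, NCI-H520 held a high level of SOX2, a lineage transcription factor of squamous lung carcinoma, but few genes of stratified epithelium. Of 27 squamous markers, 12 had mean log2 values of 5 or more in both groups. SOX2 averaged 16.33 ± 0.21 in resistant and 15.59 ± 0.12 in parental cultures (SD, n = 3 each). KRT5, a basal keratin, averaged 3.64 ± 0.32 in resistant and 3.72 ± 0.19 in parental cultures (SD, n = 3 each), and SERPINB3, a serpin of squamous epithelium, averaged 3.03 ± 0.15 in resistant and 3.10 ± 0.24 in parental cultures (SD, n = 3 each), so both lay in low signal in either group. Among these markers 6 rose and 1 fell. On the Rh41 scale the calls for SOX2, FGFR1 and SFN among the rises were lost (changes 0.36, 0.53 and 0.33). The call for SFN was also lost without any 1 of the 6 arrays, and that for SOX2 without some of them. PERP, a desmosome-associated membrane protein, had log2 values of 13.80, 13.93 and 13.80 in resistant cultures, against 11.49, 12.06 and 11.83 in parental cultures, a rise of 2.05 (SE 0.20, adjusted p = 2.76e-05). PITX1, a homeobox factor, fell by 1.35. Other lineages were checked by the mean level of their markers on each array. The 16 endothelial markers averaged 4.50 to 4.63 on resistant arrays and 4.55 to 4.58 on parental arrays, and 0 passed the threshold. The 23 leukocyte markers averaged 4.70 to 4.81 on resistant arrays and 4.60 to 4.72 on parental arrays, and 1 rose, AIF1, which was in low signal in both groups with overlapping arrays. The 19 fibroblast markers averaged 4.95 to 5.08 on resistant arrays and 5.21 to 5.32 on parental arrays, with 1 rise and 3 falls. The 20 gastrointestinal epithelial markers averaged 5.12 to 5.22 on resistant arrays and 4.46 to 4.54 on parental arrays, with 6 rises and 1 fall, the 23 neuroendocrine markers 5.40 to 5.42 on resistant arrays and 5.73 to 5.84 on parental arrays, with 1 rise and 3 falls, and the 19 lung adenocarcinoma markers 5.27 to 5.46 on resistant arrays and 5.42 to 5.55 on parental arrays, with 2 rises and 1 fall. The furthest change of the gastrointestinal list was that of CEACAM5, a membrane-anchored glycoprotein of gut epithelium, which had 10.42, 10.40 and 10.10 in resistant cultures, against 4.15, 4.46 and 4.45 in parental cultures (change 5.95, SE 0.19, adjusted p = 1.1e-08), from low signal. Of the other calls on that list, those for VIL1, CEACAM7 and CDH17 lay in low signal in both groups. MUC13, of the gastrointestinal list, and CHGB, of the neuroendocrine list, are described below, and the part of cell identity in their changes was not tested.

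Over all clusters, 1792 rose (10.1% of those tested) and 1753 fell (9.90%), so 20.0% passed in either direction, and the median change was 0.01. The 3 resistant arrays lay beyond the 3 parental arrays in 34.5% of clusters. Genes of 4 classes were read against those shares, 3240 distinct genes in 40 lists, of which 328 rose and 356 fell. Of 1233 surface genes 87 rose (7.06%) and 116 fell (9.41%), and of 660 secretory genes 45 rose (6.82%) and 66 fell, so the falls of both classes were near the share of all genes and the rises below it. Low signal in both groups held for 648 surface and 365 secretory genes. Of the others, 187 of 585 surface and 100 of 295 secretory genes passed in either direction, against 3411 of 11806 over all genes. Both shares were thus above that of all genes once low signal was left aside. Of 575 signalling genes 74 rose (12.9%) and 75 fell (13.0%), and of 808 metabolic genes 126 rose (15.6%) and 103 fell (12.7%). The medians of the classes lay within 0.03 of 0. In 27 of the 40 lists the share that passed exceeded the 20.0% of all genes. The counts of single lists below are to be read against the same shares, 10.1% risen and 9.90% fallen. A list near them changed about as often as all clusters did. The plot of list shares gives each reported list's percentage in both directions for the 4 classes, and among these the lists that leaned furthest to one side were cholesterol synthesis and redox genes to the right and the receptors, SMADs and targets of TGF-beta and BMP to the left.

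**Figure D1:**
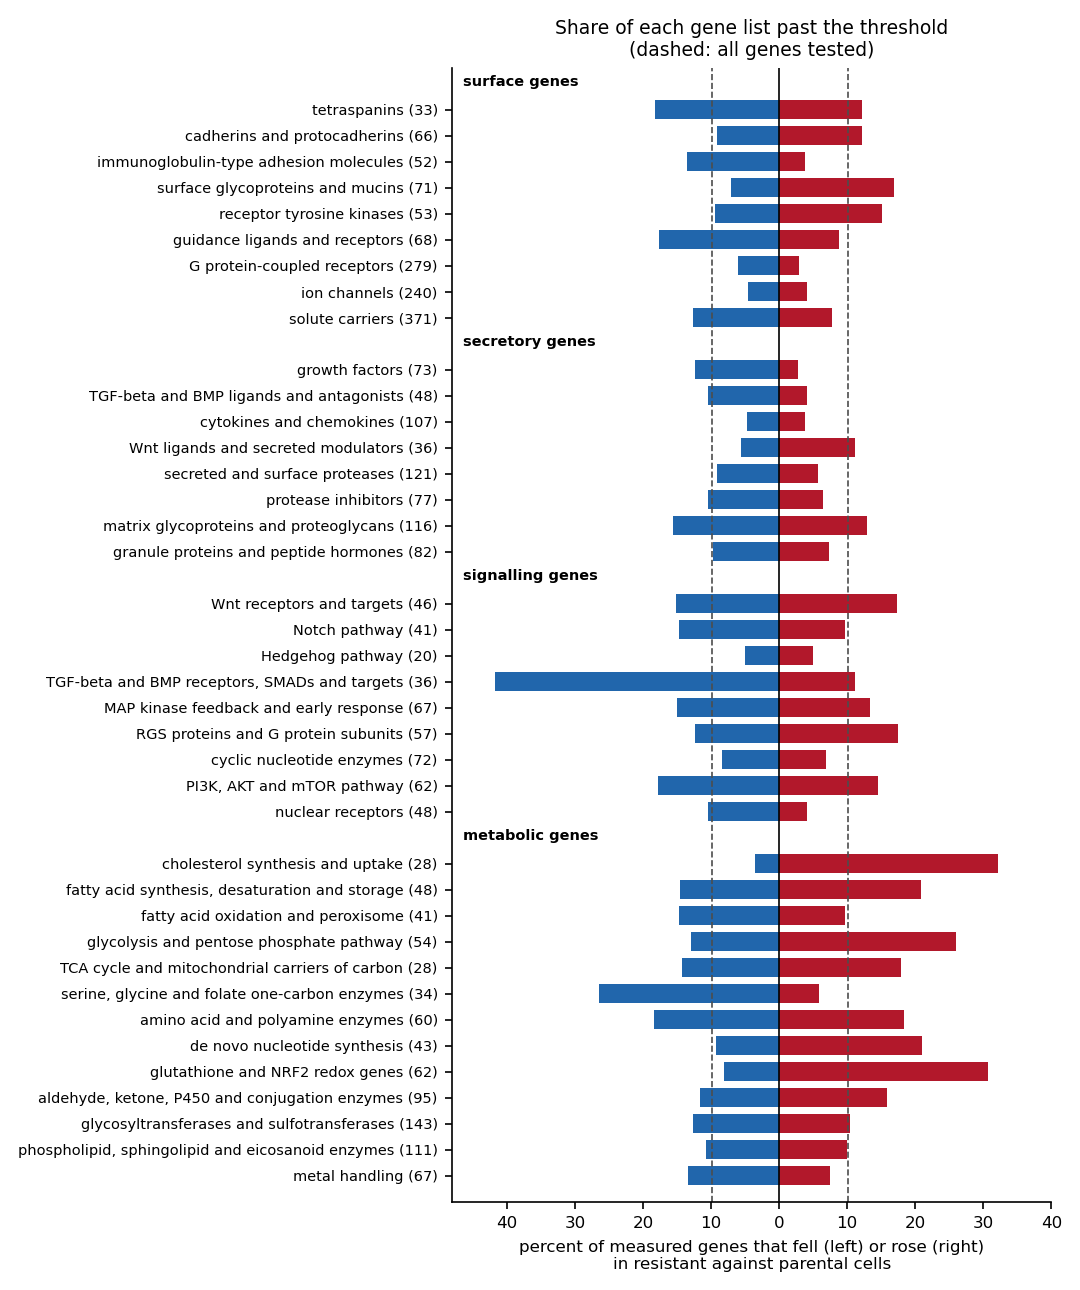
Percentage of the measured genes of each list reported in the 4 classes that fell (blue, left) or rose (red, right) in resistant NCI-H520, with the number of genes measured in brackets and dashed lines at the shares over all genes tested (9.90% and 10.1%). Of the lists drawn, that of TGF-beta and BMP receptors, SMADs and targets reaches furthest left (15 of 36 fell), and the cholesterol list furthest right (9 of 28 rose).

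**Figure D2:**
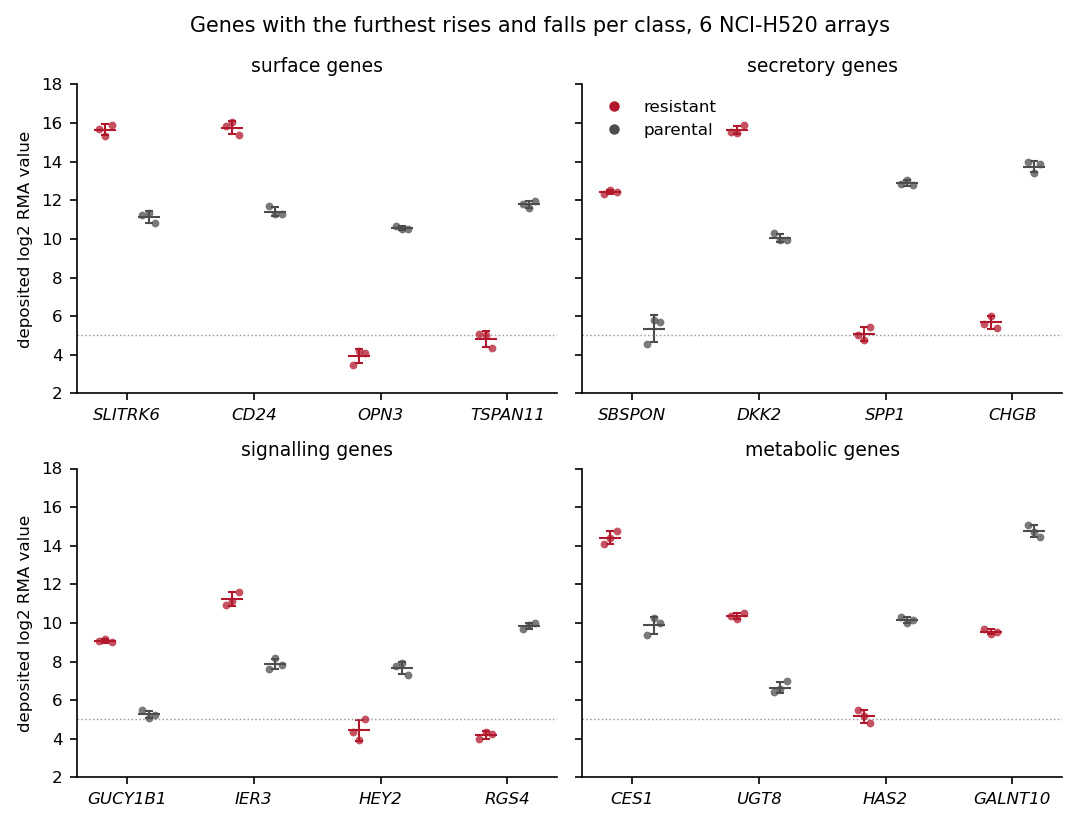
Log2 values of each array (points) with group means ± SD (bars, 3 resistant and 3 parental arrays) for the 2 furthest rises and falls of each of the 4 classes. These genes were chosen among those whose arrays do not overlap between the groups, so their separation follows from that choice. The dotted line marks log2 5, below which a mean is called low signal.

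In the lists of surface genes, which do not hold CEACAM5, the furthest rise belonged to SLITRK6, a transmembrane protein of neural and urothelial cells that has been used as an antibody-drug conjugate target. Its log2 values were 15.71, 15.34 and 15.91 in resistant cultures, against 11.25, 11.36 and 10.81 in parental cultures (change 4.51, SE 0.22, adjusted p = 1.6e-07). CD24, a small mucin-like glycoprotein anchored by a lipid, had 15.87, 16.04 and 15.39 in resistant cultures, against 11.69, 11.28 and 11.29 in parental cultures (change 4.35, SE 0.22, adjusted p = 2.1e-07). All resistant cultures were high for both genes and no parental culture reached them. In bulk RNA more cells that express a gene and more transcript per cell cannot be told apart. The surface glycoproteins and mucins were the surface list that leaned most to rises, with 12 of 71 up and 5 down (median 0.10). The risers included the transmembrane serine proteases TMPRSS4 (2.47), TMPRSS13 (2.25), TMPRSS3 (2.17) and ST14 (1.40), the last of which is matriptase. SPINT1, the membrane inhibitor of matriptase, rose with them by 1.48. MUC13, a transmembrane mucin, had 5.96, 6.02 and 5.87 in resistant cultures, against 3.74, 3.53 and 3.32 in parental cultures (change 2.42), so it was in low signal in parental cultures, as were TMPRSS4 and TMPRSS13. On the falling side MME, the metalloprotease neprilysin, had 5.72, 5.57 and 6.15 in resistant cultures, against 8.51, 8.75 and 8.64 in parental cultures (change -2.82), and CD44, the hyaluronan receptor, had 13.81, 13.43 and 14.22 in resistant cultures, against 15.40, 15.29 and 15.31 in parental cultures (change -1.51), in neither case with overlap of the groups.

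Among 33 tetraspanins, which organise receptors and integrins into membrane microdomains, 4 rose and 6 fell (median 0.01). TSPAN11 had log2 values of 5.08, 5.03 and 4.35 in resistant cultures, against 11.79, 11.61 and 11.96 in parental cultures (change -6.96, SE 0.23, adjusted p = 1.1e-08), which put it in low signal in resistant cultures. CD9, a partner of integrins, had 14.86, 15.64 and 15.41 in resistant cultures, against 12.16, 13.08 and 12.84 in parental cultures (change 2.61), and TSPAN15, which escorts the sheddase ADAM10, rose by 2.45. Of 52 immunoglobulin-type adhesion molecules, 2 rose and 7 fell (median 0.16). The falls were led by SDK2 (-2.51), a synaptic adhesion protein now in low signal, and included NCAM1 (-1.76), the neural cell adhesion molecule. In the cadherin list 8 of 66 rose and 6 fell, and FAT1, a giant protocadherin, fell by 2.43.

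Ligands and receptors of cell guidance, the semaphorin, slit, ephrin and neuropilin families, had 6 rises and 12 falls among 68 genes (median -0.07). The semaphorin SEMA6A had 10.28, 10.46 and 10.27 in resistant cultures, against 14.77, 14.25 and 14.27 in parental cultures (change -4.10, SE 0.20), with every resistant culture below every parental one. Both neuropilins, the co-receptors of class 3 semaphorins and of VEGF, were lower. NRP2 had 6.78, 7.24 and 7.32 in resistant cultures, against 9.66, 9.66 and 10.08 in parental cultures (change -2.69), and NRP1 had 4.04, 4.06 and 4.35 in resistant cultures, against 6.56, 5.55 and 6.53 in parental cultures (change -2.06), now in low signal. VEGFA, a ligand of both, fell by 1.26, PLXNA1, the plexin that signals for them, by 1.48, and SLIT3, a secreted guidance ligand, by 2.99. SEMA4D, a membrane semaphorin, stood against them with a rise of 2.70, as did the ephrin EFNB2 (1.59).

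Of 53 receptor tyrosine kinases, 8 rose and 5 fell (median -0.02). ERBB4, a neuregulin receptor, had 4.95, 5.18 and 4.72 in resistant cultures, against 7.17, 6.85 and 7.03 in parental cultures (change -2.07) and passed into low signal, whereas EPHA7 rose by 1.85. TGFA, a ligand of EGFR, fell by 2.13. Among 279 G protein-coupled receptors 8 rose and 17 fell, but 202 of them were in low signal in both groups. Of the other 77 receptors 22 passed, against 3411 of 11806 over all genes with a mean log2 value of 5 or more in at least 1 group. OPN3, an opsin made outside the eye, had 3.50, 4.21 and 4.09 in resistant cultures, against 10.68, 10.54 and 10.51 in parental cultures (change -6.64, SE 0.22, adjusted p = 1.1e-08), so it was in low signal in resistant cultures alone. GPRC5B, an orphan receptor, fell by 3.52 and LGR6, a receptor for R-spondins, by 2.99. NMUR2, a receptor of neuromedin U, had 12.01, 12.75 and 12.42 in resistant cultures, against 9.37, 10.37 and 9.90 in parental cultures (change 2.52), and its ligand NMU rose by 1.24, so both sides of this pair were higher in resistant cultures. Ion channels had 10 rises and 11 falls among 240 genes, and 18 calls among the 91 that were not in low signal in both groups. The potassium channel subunits KCNK1 (2.50) and KCNV1 (2.43) and the bestrophin BEST3 (2.55) led the rises, each from low signal in parental cultures.

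Transporters formed the longest list, with 371 solute carriers of which 29 rose and 47 fell (median 0.00). SLCO3A1, an organic anion transporter, had 5.67, 5.09 and 5.91 in resistant cultures, against 9.58, 9.32 and 9.63 in parental cultures (change -3.95, SE 0.23). Among the falls, SLC43A1, a facilitator for large neutral amino acids, had 6.54, 6.15 and 7.44 in resistant cultures, against 9.66, 10.22 and 9.90 in parental cultures (change -3.22), and SLC1A4, an exchanger for alanine and serine, had 5.37, 5.76 and 6.32 in resistant cultures, against 8.11, 8.41 and 8.26 in parental cultures (change -2.44). Neither gene had overlapping groups. SLC6A14, a carrier for neutral and cationic amino acids, fell by 2.04 and SLC6A9, a glycine carrier, by 1.78. Other carriers rose. SLC44A2, a choline carrier, had 9.06, 9.11 and 9.66 in resistant cultures, against 6.79, 6.46 and 6.87 in parental cultures (change 2.57), and its relative SLC44A1 rose by 1.65. SLC1A2, a glutamate carrier, rose by 2.10 and SLC5A1, the sodium-glucose carrier of gut and kidney, by 1.75, in the last case from low signal.

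The changes of greatest size in the 4 classes belonged to secreted proteins. SBSPON, a matrix protein with thrombospondin and somatomedin B domains, had 12.35, 12.56 and 12.43 in resistant cultures, against 4.55, 5.81 and 5.70 in parental cultures (change 7.09, SE 0.30, adjusted p = 5.35e-08). CHGB, a chromogranin of dense-core secretory granules, had 5.59, 6.03 and 5.41 in resistant cultures, against 13.97, 13.40 and 13.87 in parental cultures (change -8.07, SE 0.23, adjusted p = 5.77e-09), and SPP1, the secreted phosphoprotein osteopontin, had 5.01, 4.78 and 5.46 in resistant cultures, against 12.86, 13.06 and 12.79 in parental cultures (change -7.82, SE 0.22, adjusted p = 5.77e-09). For each of these genes the resistant arrays lay far from the parental arrays, with no overlap. Granule proteins and peptide hormones as a list had 6 rises and 8 falls of 82 (median 0.02). PENK, the precursor of enkephalins, rose by 4.44. The paralogous priming factors of dense-core vesicles went opposite ways, with CADPS at 5.35, 6.09 and 5.14 in resistant cultures, against 9.06, 9.51 and 10.15 in parental cultures (change -4.05) and CADPS2 at 7.50, 7.82 and 7.78 in resistant cultures, against 6.13, 5.46 and 6.25 in parental cultures (change 1.75). STC2, the glycoprotein hormone stanniocalcin, fell by 2.38.

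Matrix glycoproteins and proteoglycans had 15 rises and 18 falls of 116 (median -0.04). FN1, fibronectin, had 5.93, 5.68 and 6.14 in resistant cultures, against 10.44, 10.57 and 10.36 in parental cultures (change -4.54), and FBLN2, which binds fibronectin and basement membrane, had 4.98, 4.93 and 5.47 in resistant cultures, against 9.80, 9.88 and 9.89 in parental cultures (change -4.73). TGFBI (-4.46), SMOC2 (-3.30), SPOCK1 (-3.09) and THBS1 (-2.88), all secreted matrix-associated proteins, fell too. The insulin-like growth factor binding proteins split: IGFBP5 fell by 6.15 and IGFBP3 fell by 2.19, while IGFBP2 rose by 1.80. TGFBI, SPOCK1 and IGFBP5 were in low signal in resistant cultures. SDC4, a transmembrane heparan sulfate proteoglycan of focal adhesions, had 10.82, 11.18 and 11.37 in resistant cultures, against 6.64, 7.24 and 7.39 in parental cultures (change 4.03, SE 0.24, adjusted p = 7.06e-07) and was the furthest rise of this list after SBSPON, with no overlap. Of 121 secreted and surface proteases, 7 rose and 11 fell, among them CTSC (2.74), a lysosomal dipeptidyl peptidase, and MMP2 (-2.80), a gelatinase. Of 77 protease inhibitors, 5 rose and 8 fell, led by SERPINI1, neuroserpin, at 4.07, 5.54 and 4.54 in resistant cultures, against 10.02, 9.97 and 10.17 in parental cultures (change -5.34), and WFDC2, a small inhibitor used as a serum marker of ovarian cancer, which rose by 2.45. Low signal held for SERPINI1 in resistant cultures and for WFDC2 in parental cultures.

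Growth factors had 2 rises and 9 falls of 73, and cytokines and chemokines had 4 rises and 5 falls of 107. CCL20, the ligand of CCR6, rose by 2.53 from low signal. IGF1 fell by 1.42, FGF3 by 1.73 and PDGFA by 1.21, the last into low signal.

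Among 36 secreted Wnt genes 4 rose and 2 fell (median 0.02). DKK2, which binds the co-receptor LRP6, had 15.56, 15.51 and 15.88 in resistant cultures, against 10.30, 9.95 and 9.93 in parental cultures (change 5.60, SE 0.20, adjusted p = 1.54e-08). WIF1, which binds Wnt proteins directly, had 11.82, 11.90 and 11.80 in resistant cultures, against 7.09, 8.01 and 8.07 in parental cultures (change 4.12, SE 0.26, adjusted p = 9.9e-07). The groups did not overlap for either gene. DKK1 rose as well by 1.33 but was in low signal in both groups. NOTUM, an enzyme that inactivates Wnt by removing its lipid, went the other way (-0.99). Ligands usually placed in the beta-catenin-independent branch were opposed, with WNT5A up by 2.12 and WNT11 down by 1.91 into low signal. Of 46 Wnt receptors and targets, 8 rose and 7 fell (median 0.05). NKD1 had 13.62, 13.68 and 13.48 in resistant cultures, against 14.69, 14.79 and 14.79 in parental cultures (change -1.16), RNF43 fell by 0.75 and ZNRF3 by 0.82, whereas AXIN2 had a change of -0.43 that did not pass. On the Rh41 scale RNF43 and ZNRF3 did not pass (changes -0.38 and -0.44). The call for ZNRF3 was also lost without resistant replicate 2 (change -0.70) and without parental replicate 3 (change -0.78). NKD1, ZNRF3, RNF43 and AXIN2 are known as genes that beta-catenin induces in many tissues and that restrain the pathway.

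BMP4 and the ID genes were lower in resistant than in parental cultures. BMP4, a ligand of the BMP branch of TGF-beta signalling, had 5.61, 6.43 and 6.22 in resistant cultures, against 11.19, 10.85 and 11.29 in parental cultures (change -5.02, SE 0.24, adjusted p = 1.26e-07). ID1, ID2, ID3 and ID4, inhibitors of basic helix-loop-helix factors and direct BMP targets, all fell: ID2 had 9.49, 9.66 and 9.18 in resistant cultures, against 12.18, 12.28 and 12.26 in parental cultures (change -2.80), ID1 had 10.25, 9.97 and 10.38 in resistant cultures, against 12.09, 12.35 and 12.42 in parental cultures (change -2.09), and ID4 and ID3 changed by -1.26 and -1.10. For the ligand and the 4 ID genes all resistant arrays lay below all parental arrays. In the pathway's middle, SMAD4, the SMAD shared by TGF-beta and BMP, had 10.17, 10.09 and 10.39 in resistant cultures, against 12.02, 12.28 and 12.15 in parental cultures (change -1.94), SMAD9, a BMP-specific SMAD, fell by 2.65, and SMAD2, of the TGF-beta branch, fell by 1.96. The inhibitors SMAD7 and BAMBI and the receptor BMPR2 fell by 1.09, 1.40 and 0.99. In the list of receptors, SMADs and targets 4 of 36 rose and 15 fell, with a median of -0.34 against 0.01 over all genes. TGFBR1, the type I receptor of TGF-beta, was the exception of size, with 12.81, 12.46 and 12.71 in resistant cultures, against 10.82, 10.45 and 10.68 in parental cultures (change 2.01). A shorter list of the BMP and nodal axis, drawn up after these values were seen, held 24 genes of which 0 rose, 11 fell and 13 did not pass (median -0.43). That count is a description and no support for its direction. The activin receptors ACVR2A and ACVR1C, which rose by 1.31 and 1.16, are not on that list. Among ligands and antagonists 2 of 48 rose and 5 fell, including the inhibin subunits INHBB (-2.35) and INHBE (-1.83) among the falls.

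**Figure D3:**
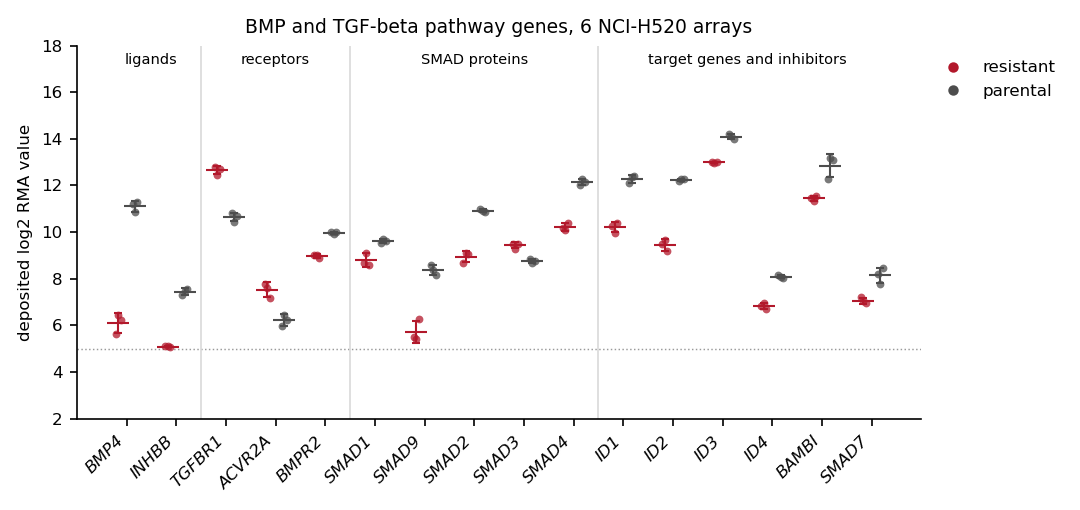
Log2 values of each array (points) with group means ± SD (bars, 3 resistant and 3 parental arrays) for ligands, receptors, SMADs, inhibitors and targets of BMP and TGF-beta, most of them named in the text. The ligand BMP4 and the 4 ID genes lie lower on all resistant arrays, the resistant means of TGFBR1 and ACVR2A lie higher, and the dotted line marks log2 5.

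In the Notch list 4 of 41 genes rose and 6 fell (median -0.03). HEY2, a Notch target, had 4.37, 3.93 and 5.002 in resistant cultures, against 7.75, 7.93 and 7.30 in parental cultures (change -3.23, SE 0.28, adjusted p = 1.08e-05), now in low signal, and HES1, another target, fell by 1.25. JAG1, a ligand, rose by 1.60 and the co-activator MAML2 fell by 2.31. In the Hedgehog list of 20 genes 1 rose, PTCH1, and 1 fell, CDON, a surface protein that binds Hedgehog ligands, by 1.23. PTCH1, the receptor and a target of the pathway, had 10.99, 10.46 and 11.14 in resistant cultures, against 8.25, 7.97 and 8.17 in parental cultures (change 2.74), while the target GLI1 had a change of 0.52 that did not pass. SMO, the signal transducer, which is not on that list, fell by 1.04, a call lost on the Rh41 scale (change -0.51).

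Early-response and feedback genes of the MAP kinase pathway were split, with 9 rises and 10 falls of 67 (median 0.03). IER3, a stress-induced survival protein, had 10.95, 11.15 and 11.62 in resistant cultures, against 7.64, 8.18 and 7.80 in parental cultures (change 3.37, SE 0.23, adjusted p = 1.95e-06). EGR1, an immediate early transcription factor, had 8.01, 8.30 and 9.12 in resistant cultures, against 11.37, 11.22 and 10.73 in parental cultures (change -2.63), and JUN, DUSP1 and MYC fell with it by 1.68, 1.42 and 1.08. The ETS factors ETV4 and ETV5, both known as targets of ERK signalling, went apart, ETV4 up by 1.79 and ETV5 down by 1.45.

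RGS4, which speeds GTP hydrolysis by Gq and Gi, had 3.99, 4.36 and 4.25 in resistant cultures, against 9.68, 9.91 and 9.97 in parental cultures (change -5.66, SE 0.19, adjusted p = 1.1e-08) and passed into low signal. The gamma subunits GNG10 (1.85) and GNG4 (1.80) rose, GNG4 from low signal. This list of 57 genes had 10 rises and 7 falls, but its 17 calls became 8 without resistant replicate 2 and 10 without parental replicate 1. Both subunits of soluble guanylate cyclase, the receptor of nitric oxide that makes cyclic GMP, were higher: GUCY1B1 had 9.05, 9.18 and 8.996 in resistant cultures, against 5.48, 5.10 and 5.24 in parental cultures (change 3.80, SE 0.19, adjusted p = 1.6e-07) and GUCY1A1 had 4.85, 5.44 and 5.60 in resistant cultures, against 2.93, 3.22 and 2.88 in parental cultures (change 2.29), from low signal. PDE5A, which breaks cyclic GMP down, had 7.69, 8.17 and 8.15 in resistant cultures, against 10.76, 10.55 and 10.80 in parental cultures (change -2.70). The synthetic enzyme was thus higher and the degrading enzyme lower in every resistant culture. In the whole cyclic nucleotide list 5 of 72 genes rose and 6 fell, and these 11 calls were among 41 genes not in low signal in both groups.

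In the PI3K, AKT and mTOR list 9 of 62 rose and 11 fell. SGK1 and SGK3, kinases akin to AKT, rose by 1.83 and 1.72, and DDIT4 and SESN2, which restrain mTOR complex 1 under stress, fell by 2.02 and 1.38. The pseudokinases TRIB2 and TRIB3 fell by 2.73 and 2.07, TRIB2 into low signal. Nuclear receptors had 2 rises and 5 falls of 48. The retinoid genes CRABP2, a retinoic acid binding protein, and STRA6, the retinol importer, fell by 2.66 and 2.20 into low signal.

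Genes of the amino acid response were mostly lower in resistant than in parental cultures. ATF4, the transcription factor of the amino acid response, had 12.38, 12.63 and 12.54 in resistant cultures, against 13.48, 13.99 and 13.84 in parental cultures (change -1.26, SE 0.20, adjusted p = 0.000877). Several genes known to be raised by it were lower with it. CHAC1, which degrades glutathione, had 9.66, 10.02 and 10.38 in resistant cultures, against 11.91, 12.51 and 12.19 in parental cultures (change -2.18). ASNS, asparagine synthetase, had 12.75, 13.09 and 12.88 in resistant cultures, against 14.23, 14.70 and 14.52 in parental cultures (change -1.58), and TRIB3, a pseudokinase, had 7.85, 8.19 and 8.72 in resistant cultures, against 10.08, 10.54 and 10.36 in parental cultures (change -2.07). All resistant cultures lay below all parental cultures for these 4 genes. In a list of 50 such genes, assembled after several of its members had been seen to fall, 34 fell and 3 rose, with a median of -1.06. The choice of that list on these values means its count is a description and no support for its direction. Among the 34 serine, glycine and folate one-carbon enzymes, some of which are on that list too, 2 rose and 9 fell (median -0.18).

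The falls ran from uptake and synthesis to the charging of tRNA. Serine synthesis starts with PHGDH, which had 14.31, 14.32 and 14.33 in resistant cultures, against 15.59, 15.81 and 15.77 in parental cultures (change -1.40). SHMT2, the mitochondrial serine hydroxymethyltransferase, had 14.45, 14.37 and 14.77 in resistant cultures, against 15.97, 16.16 and 16.06 in parental cultures (change -1.53), and GLDC, which cleaves glycine, had 4.93, 5.35 and 5.58 in resistant cultures, against 7.43, 8.40 and 7.68 in parental cultures (change -2.55). No resistant array reached a parental one for these enzymes. The paralogs that use 10-formyltetrahydrofolate were opposed, the mitochondrial ALDH1L2 at 5.73, 6.003 and 5.82 in resistant cultures, against 8.30, 8.44 and 8.63 in parental cultures (change -2.61) and the cytosolic ALDH1L1 at 10.98, 11.11 and 10.87 in resistant cultures, against 7.80, 8.14 and 7.33 in parental cultures (change 3.23). PYCR1, which makes proline, fell by 1.58, PCK2, the mitochondrial phosphoenolpyruvate carboxykinase, by 2.36, and CBS, of transsulfuration, by 1.46. ASS1, which makes argininosuccinate and is not on the list, had 11.89, 11.59 and 11.73 in resistant cultures, against 14.13, 14.76 and 15.02 in parental cultures (change -2.90). Of the tRNA synthetases of the cytosol, WARS1 had 12.33, 12.24 and 12.79 in resistant cultures, against 14.86, 15.15 and 15.18 in parental cultures (change -2.61) and GARS1 had 12.37, 12.63 and 12.35 in resistant cultures, against 14.15, 14.59 and 14.29 in parental cultures (change -1.90), SARS1 fell by 1.56 and NARS1 by 1.95. IARS1, which charges isoleucine, went the other way with a rise of 1.19. GOT1, the cytosolic aspartate aminotransferase, also rose, by 1.53. Changes that did not pass belonged to members such as DDIT3 (0.31), the stress factor CHOP, and SLC7A5 (-0.31), a carrier of large neutral amino acids. Amino acid and polyamine enzymes as a list had 11 rises and 11 falls of 60, 22 calls that became 14 without parental replicate 2.

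**Figure D4:**
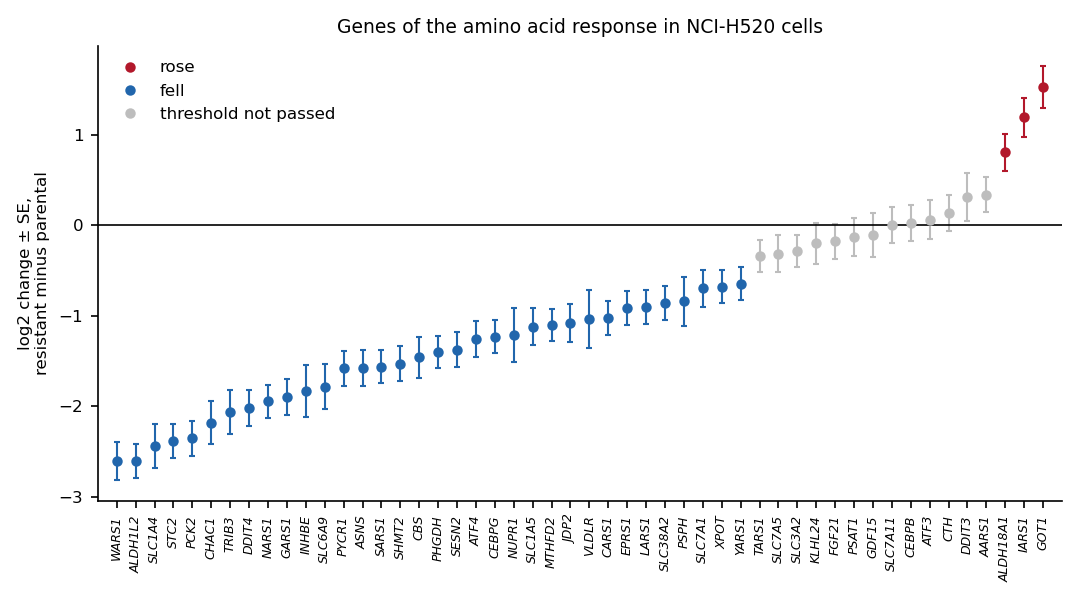
Log2 change, resistant minus parental, with SE (bars) for the genes of the amino acid response list, from 3 resistant and 3 parental arrays, with colours for genes that rose, fell or did not pass the threshold. ATF4 and 33 other genes lie to the left past the threshold, and GOT1, IARS1 and ALDH18A1 to the right.

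Some promoters of these genes hold the letters that ATF4 is known to read. The C/EBP-ATF response element was searched as TGATGNAA on both strands in the RefSeq promoter windows of build GRCh38.p14, each from 250 bases before to 50 after a gene's start, with any listed start of a gene counted. It was found for 17 of the 41 list genes with a promoter sequence (41.5%), against 512 of 14250 tested genes (3.59%). The list names known targets of ATF4, so this share describes how it was written. Within it the element stood on both sides, and it was found for 10 of 26 genes that fell (38.5%), 5 of 12 that did not pass and 2 of 3 that rose. These windows are shown for genes that fell (ASNS, CHAC1, CEBPG, SLC1A4) and for the genes that rose with the same letters (GOT1, IARS1), with the element in capitals, read along the gene's strand. TTNCATCA is the element read from the other strand.
ASNS: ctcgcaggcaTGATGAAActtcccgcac
CHAC1: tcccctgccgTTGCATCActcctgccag
CEBPG: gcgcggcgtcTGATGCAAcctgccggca
SLC1A4: cggctcccgtTTGCATCAtctccagccg
GOT1: attgcattggTTGCATCAttctcggcag
IARS1: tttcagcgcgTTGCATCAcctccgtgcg

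The windows lie at chr7:97872459-97872486 (minus strand) for ASNS, chr15:40953252-40953279 (plus) for CHAC1, chr19:33374061-33374088 (plus) for CEBPG, chr2:64989382-64989409 (plus) for SLC1A4, chr10:99430805-99430832 (minus) for GOT1 and chr9:92293693-92293720 (minus) for IARS1. CEBPG, the C/EBP partner of ATF4, had 11.02, 11.02 and 11.18 in resistant cultures, against 12.15, 12.30 and 12.47 in parental cultures (change -1.23). A match is a description of letters and not of a bound site. CHAC1, SLC1A4, GOT1 and IARS1 carry the identical run TTGCATCA, and their changes were -2.18, -2.44, 1.53 and 1.19.

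Glutathione and thioredoxin genes were among the lists with most rises, 19 of 62 against 5 falls (median 0.35). TXN, thioredoxin, had 16.76, 16.85 and 16.47 in resistant cultures, against 14.21, 14.68 and 14.49 in parental cultures (change 2.24, SE 0.20, adjusted p = 1.62e-05). GSTP1, the main glutathione transferase of many carcinomas, had 16.61, 16.65 and 16.66 in resistant cultures, against 14.60, 14.88 and 14.97 in parental cultures (change 1.82). The arrays of the groups did not overlap for either. Further transferases rose, MGST2 by 1.49 and GSTM3 by 1.43, as did ABCC2, an exporter of glutathione conjugates, by 1.65. Members of the GSTA and GSTM families are close in sequence, so their probes may share transcripts. NQO1, a quinone reductase and a standard NRF2 target, had 15.90, 16.13 and 16.21 in resistant cultures, against 14.81, 15.12 and 15.19 in parental cultures (change 1.04). The calls for NQO1 and GSTM3 were lost on the Rh41 scale (changes 0.58 and 0.73). Against these rises, GCLC, the catalytic subunit that limits glutathione synthesis and is also an NRF2 target, fell by 0.94. Its call was lost on the Rh41 scale as well (change -0.51). Its modifier subunit GCLM had a change of 0.59 that just missed the threshold (adjusted p = 0.0503) though the arrays did not overlap, and it passed with low signal left out (adjusted p = 0.0302), with the robust prior (0.043) and without parental replicate 1 (0.0304).

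The antioxidant response element, the site known for NRF2, was searched as TGACNNNGCA on both strands in the same windows. It was found for 7 of 51 redox genes with a promoter sequence (13.7%), against 608 of 14250 tested genes (4.27%). The list was drawn up from glutathione and NRF2 genes, so this share describes in part how it was written. Within it the element was found for 3 of 18 genes that rose (16.7%), 4 of 28 that did not pass (14.3%) and 0 of 5 that fell. The element of GSTP1, at chr11:67583737-67583764 (plus), is shown because this gene rose furthest of the 3 that rose. Its letters also contain TGANTCA, the AP-1 element, so the letters alone do not tell these motifs apart.
GSTP1: ccggcgccgTGACTCAGCActggggcgg

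Enzymes that oxidise, reduce or conjugate small molecules had 15 rises and 11 falls of 95. CES1, a carboxylesterase of liver and lung, had 14.10, 14.39 and 14.77 in resistant cultures, against 9.37, 10.25 and 10.01 in parental cultures (change 4.54, SE 0.26, adjusted p = 5.45e-07). The aldehyde dehydrogenase ALDH3B2 rose by 2.82 and ALDH1A1, which oxidises retinal, by 1.57. The aldo-keto reductases AKR1C2 and AKR1C3, which NRF2 is known to induce as well, fell by 2.89 and 1.85. AKR1C members are near-identical in sequence and their values may not be separate. Most genes near them on chromosome 10 fell as well, 20 of the 32 nearest for AKR1C2 (median -0.89) and 20 of 33 for AKR1C3 (median -0.87).

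Of 143 glycosyltransferases and sulfotransferases 15 rose (10.5%) and 18 fell (12.6%), beside 10.1% and 9.90% of all clusters, with a median of 0.02. HAS2, hyaluronan synthase, had 5.48, 5.20 and 4.81 in resistant cultures, against 10.30, 10.003 and 10.15 in parental cultures (change -4.99, SE 0.21, adjusted p = 5.76e-08), which stands beside the fall of its receptor gene CD44. GALNT10, which starts O-linked mucin chains, had 9.69, 9.43 and 9.54 in resistant cultures, against 15.08, 14.69 and 14.47 in parental cultures (change -5.20, SE 0.21, adjusted p = 3.83e-08). Its relatives GALNT6 and GALNT13 fell by 2.73 and 2.17, while GALNT3 rose by 1.91. Enzymes of the same first step thus moved both ways. Of enzymes that build chondroitin sulfate, CHST15 fell by 3.89, CHSY1 by 2.05 and the chain-starting CSGALNACT2, which lies in a block of falls on chromosome 10 described below, by 1.55. The heparan sulfate 3-O-sulfotransferase HS3ST3B1 rose by 2.39. UGT8, which makes galactosylceramide, had 10.38, 10.18 and 10.51 in resistant cultures, against 6.43, 6.55 and 6.98 in parental cultures (change 3.70, SE 0.21, adjusted p = 4.66e-07), and FUT8, which adds core fucose, had 11.35, 11.31 and 11.50 in resistant cultures, against 7.71, 8.50 and 8.17 in parental cultures (change 3.26). These groups did not overlap.

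Of 28 genes of cholesterol synthesis and uptake 9 rose and 1 fell (median 0.35). ACAT2, which makes acetoacetyl-CoA, had 10.50, 9.97 and 9.81 in resistant cultures, against 8.80, 8.27 and 8.30 in parental cultures (change 1.64), EBP, a sterol isomerase, rose by 1.06, and TM7SF2, a sterol reductase, fell by 1.74. The cholesterol exporters ABCA1 and ABCG1, known targets of liver X receptors, rose by 1.39 and 1.37, ABCA1 from low signal. Of 48 fatty acid genes 10 rose and 7 fell. FASN, fatty acid synthase, rose by 1.05, SCD, a delta-9 desaturase, by 1.12, and ELOVL6, an elongase, by 1.63, while FADS2, the delta-6 desaturase, had 11.41, 11.26 and 11.68 in resistant cultures, against 14.28, 13.77 and 13.78 in parental cultures (change -2.49). The desaturases thus went opposite ways. In fatty acid oxidation 4 of 41 rose and 6 fell, 10 calls that became 6 without parental replicate 3. PPARGC1A, a co-activator of mitochondrial genes, had 10.53, 10.24 and 10.69 in resistant cultures, against 7.11, 7.55 and 7.79 in parental cultures (change 3.001), and ACAA2, a mitochondrial thiolase, had 10.23, 10.04 and 9.91 in resistant cultures, against 12.99, 13.24 and 13.03 in parental cultures (change -3.03). Of 111 phospholipid, sphingolipid and eicosanoid genes 11 rose and 12 fell, PLA2G7, which hydrolyses platelet-activating factor, falling by 2.98 into low signal.

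Of 54 genes of glycolysis and the pentose phosphate pathway 14 rose and 7 fell (median 0.21). TPI1, triose phosphate isomerase, had 14.31, 14.12 and 14.07 in resistant cultures, against 12.86, 12.67 and 12.92 in parental cultures (change 1.35), ENO1, enolase, rose by 1.05, and LDHB, a lactate dehydrogenase subunit, by 1.38. Of the kinases that switch off pyruvate dehydrogenase, PDK3 had 9.38, 9.13 and 9.34 in resistant cultures, against 6.13, 7.18 and 7.04 in parental cultures (change 2.50), PDK1 and PDK2 rose by 1.39 and 1.37, and PDK4 was in low signal in both groups with a change of -0.02. PDP1, the phosphatase that reverses their action, rose as well, by 1.46. PFKFB3, which makes the activator of phosphofructokinase, had 5.57, 5.22 and 5.19 in resistant cultures, against 7.78, 7.90 and 8.01 in parental cultures (change -2.57). In the list of the TCA cycle and its feeders 5 of 28 rose and 4 fell (median 0.26), with PC, pyruvate carboxylase, up by 1.84 and IDH1, the cytosolic isocitrate dehydrogenase, down by 1.40. The malic enzymes of the mitochondrion were opposed, with a change of 1.55 for ME3 and -2.26 for ME2.

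Of 43 genes of nucleotide synthesis and salvage 9 rose and 4 fell (median 0.12). ADA, adenosine deaminase, had 7.86, 8.49 and 7.87 in resistant cultures, against 5.45, 5.97 and 5.40 in parental cultures (change 2.47), and PNP, which acts after it on purine nucleosides, had 10.74, 10.40 and 10.47 in resistant cultures, against 9.12, 8.95 and 9.16 in parental cultures (change 1.46), with no overlap in either. The pyrimidine enzymes DHODH and UMPS rose by 1.29 and 1.35 and PRPS2, which makes the ribose donor, by 1.49. XDH, which ends purine breakdown, fell by 1.41 into low signal. Metal handling had 5 rises and 9 falls of 67, and its 14 calls became 7 without parental replicate 2 and 9 without any 1 of the resistant replicates. NCOA4, which delivers ferritin for degradation, fell by 1.43.

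Runs of neighbouring genes changed the same way. The 11368 genes with a mean log2 value of 5 or more that could be placed in the RefSeq order of GRCh38.p14 were read in windows of 41 neighbours, chosen after the values were seen and with no test, since the blocks are drawn from the same changes. Of 10448 windows, 294 had a median change above the 1.5-fold threshold and 205 a median below its negative, and the medians reached 1.61 and -1.41. Over the same genes the changes of resistant against parental SJCRH30 had window medians between -1.04 and 0.87. Runs of such windows made 9 blocks of at least 20 genes, holding 424 genes, of which 285 had passed the threshold (67.2%, against 28.8% of all genes placed). Copy number was not measured on these arrays, and its part in the blocks was not tested.

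The longest block lay on chromosome 9 between NAA35 and TMEM268. Of its 127 genes 88 rose and 3 fell, with a median change of 1.19. The median level of its genes was 8.72, 8.93 and 8.85 in resistant cultures, against 7.33, 7.47 and 7.37 in parental cultures, so each resistant culture was higher than each parental one. The median change of these genes in SJCRH30 was -0.02. On chromosome 18, from ATP5F1A to CDH7, 38 of 52 genes fell and 3 rose (median -1.30), with median levels of 7.17, 7.24 and 7.33 in resistant cultures, against 8.56, 8.71 and 8.76 in parental cultures. Here all resistant cultures were the lower ones. Over the whole of chromosome 18, 67 of 162 genes placed fell (41.4%). Chromosome 10 held 2 blocks of falls, PTER to ZNF485 (31 of 51 fell, median -0.79) and GDI2 to FRMD4A (14 of 26, median -0.74). Rises filled a block on chromosome 16 from NPIPB15 to KIAA0513 (30 of 48, median 0.98), another on chromosome 3 from SNRK to IMPDH2 (26 of 48, median 0.74) and one on chromosome 6 from TCF21 to FUCA2 (19 of 28, median 0.83). The block of falls on chromosome 3 from ARPC4 to FBLN2 (18 of 24, median -0.93) was also lower in resistant than in parental SJCRH30 (median -0.72). The block of falls on chromosome 7 from EIF2AK1 to COXFA4 was the shortest (10 of 20, median -0.62).

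**Figure D5:**
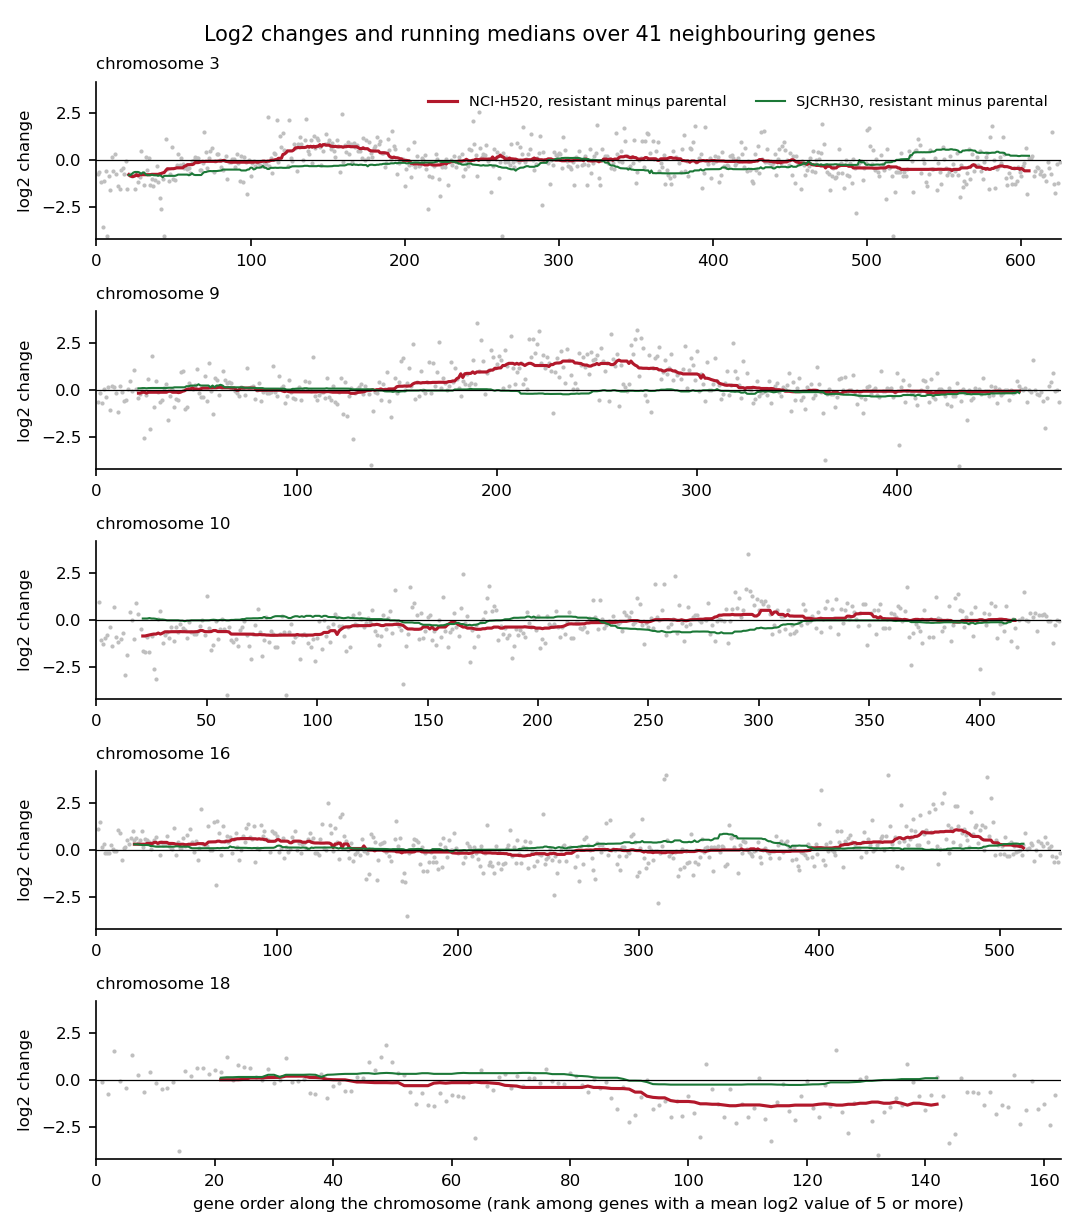
Log2 change, resistant minus parental, of each gene with a mean log2 value of 5 or more (grey points, drawn no further than ±4) in gene order along chromosomes 3, 9, 10, 16 and 18, with the running median over 41 genes for NCI-H520 (red) and for SJCRH30 (green). The NCI-H520 median leaves the band around 0 in blocks, highest on chromosome 9 and lowest on chromosome 18, where the SJCRH30 median stays nearer 0.

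Several genes described above lie inside these blocks, beside neighbours that changed the same way. For PTCH1, on chromosome 9, the 40 nearest genes had a median change of 1.36 and 31 of them rose. The same held for TGFBR1 (1.43, 32 of 40 rose), TXN (1.17, 27 of 40), SEMA4D (0.94, 24 of 40) and IARS1 (1.12, 26 of 40), also on chromosome 9, and the carrier SLC44A1 and the subunit GNG10 lie in that block too. TGFBR1, SEMA4D and IARS1, which rose while most genes called in their lists fell, thus lie in 1 block. On chromosome 18, SMAD4 had neighbours with a median of -1.30 (29 of 40 fell), and SMAD2, SMAD7, ME2, ACAA2 and NARS1 lie in the same block. BAMBI, NRP1, CSGALNACT2 and PFKFB3 lie in the blocks of falls on chromosome 10, FBLN2 at the end of that on chromosome 3, and SGK1 and PERP in the block of rises on chromosome 6. BAMBI, SMAD2, SMAD4 and SMAD7 are 4 of the 15 falls among TGF-beta and BMP receptors, SMADs and targets, so 11 falls of that list, those of the ID genes included, lie outside the blocks, and BMP4 does too. Of the 11 falls of the BMP and nodal list 3 lie in blocks, those of BAMBI, SMAD4 and SMAD7. In the amino acid response list only IARS1 and NARS1 lie in a block. Blocks needed full windows, so a gene within 20 places of a chromosome end could not lie in one. Outside the blocks the nearest genes changed too, in either direction. Their median was -0.35 for BMP4, 0.03 for ID1, 0.20 for ID2, 0.22 for ID3 and 0.05 for ID4. It was -0.42 for SLC6A9, -0.21 for ASNS, 0.05 for ATF4 and 0.31 for CHAC1. How far the position of a gene sets its change was not tested.

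For the leading genes the change in NCI-H520 was set against that of resistant and parental SJCRH30 cultures in 1 fit, in which 23.1% of all clusters differed at an adjusted p under 0.05. All 16 leading genes of the 4 classes differed. They had been chosen for the size of their change on the same NCI-H520 arrays, so a difference was likely from the outset. CD24 changed by 4.35 in NCI-H520 and by -0.71 in SJCRH30, a difference of 5.06 (SE 0.35). HAS2 and GALNT10 passed as falls in SJCRH30 too, with changes of -1.24 and -1.31, beside -4.99 and -5.20 in NCI-H520. OPN3 changed by 1.23 there, in the opposite direction to its change of -6.64 here, and IER3 by -0.65 there, against its rise of 3.37 here.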

How the data were processed

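Total RNA of cultured cells was hybridized to Affymetrix Clariom S arrays. The deposited values are log2 values that the authors made from the array intensities by RMA (named in the submitters' processing notes, with no version) with quantile normalization. The genome build behind the probe annotation is not given in these sources. The sorted values of the 6 NCI-H520 arrays were equal within 0.01, and their standard deviation was 1.50 times that of the Rh41 arrays. Nothing was normalized again. Arrays give no read depth, and their number limits the precision.

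Groups were taken from the sample titles. The 17709 clusters with exactly 1 symbol were fitted with limma 3.58.1 in R 4.3.3 (lmFit, eBayes, two-sided, resistant minus parental), and p-values were adjusted over all of them by the method of Benjamini and Hochberg. No set test was run. Of the signalling lists, 1 entered the counts by class and is not reported here. A difference from SJCRH30 was tested as an interaction in 1 fit of 12 arrays. The fit was tested on simulated data. Python 3.11.15 with matplotlib 3.10.9 drew the figures.

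The members and lists were chosen with earlier results of these data known, by family name or from general knowledge, and each gene was read by its cluster of highest mean. Named genes were the 3 furthest rises and falls of each list, the 5 of each class and the 10 overall that passed the threshold without overlap of arrays, the 5 furthest genes in several lists, members of short lists and called markers. Not all of these genes are printed above, so a gene given for a list need not be its furthest change. A further 51 genes were named after their values were seen, and so were the amino acid response list, the BMP and nodal list, the promoter motifs and the windows of neighbouring genes. Promoters came from RefSeq, build GRCh38.p14, in which 14250 of 17687 gene symbols had at least 1. The alternatives were the scale of the Rh41 arrays, no fold threshold, low signal left out, all clusters tested, the SJCRH30 arrays in the fit, a robust prior that depends on the mean, a replicate block and leaving out each array.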

Additional observations from a re-analysis of the deposited data

Results flagged for a closer look

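The change in NCI-H520 differed from the change in SJCRH30 for all 16 leading genes, which are the 2 furthest rises and falls of each of the 4 classes. The test was the interaction in a limma fit of 12 arrays with Benjamini-Hochberg adjustment, in which 23.1% of all clusters differed, and the genes had been chosen for their size in NCI-H520. Of the surface genes, the difference (NCI-H520 change minus SJCRH30 change) was 3.60 for SLITRK6, 5.06 for CD24, -7.18 for TSPAN11 and -7.87 for OPN3. Of the secretory genes it was 7.26 for SBSPON, 5.67 for DKK2, -8.05 for CHGB and -7.76 for SPP1. The signalling genes GUCY1B1, IER3, RGS4 and HEY2 differed by 3.11, 4.02, -5.48 and -2.87. Among metabolic genes the differences were 4.59 for CES1, 4.02 for UGT8, -3.88 for GALNT10 and -3.74 for HAS2. The weakest of these differences was that of HEY2 (adjusted p = 0.00014).

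SLITRK6, GALNT10 and HAS2 passed the same way in both lines, with SJCRH30 changes of 0.91, -1.31 and -1.24. OPN3 and IER3 passed in opposite ways, with SJCRH30 changes of 1.23 and -0.65. Outside the named clusters, 483 of 3739 clusters with no symbol listed passed the threshold, 210 higher and 273 lower in resistant NCI-H520.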

How the results depend on the processing

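Mapping the NCI-H520 values onto the narrower scale of the Rh41 arrays changed the counts most. The cause was not tested. On that scale 895 clusters rose and 773 fell over all, 55 and 68 in the surface class, 38 and 38 in the signalling class and 63 and 50 in the metabolic class. There 23 genes of the amino acid response list passed, against 37, and 7 of the BMP and nodal list, against 11. Of 333 named genes past the threshold, 65 lost the call under some alternative, 63 of them on the Rh41 scale and 39 only there, and none changed direction. PDK4, which did not pass, had changes of -0.15 to 0.21 without 1 array. Leaving out 1 array gave 1486 to 1586 rises and 1358 to 1569 falls over all, 71 to 81 and 95 to 110 in the surface class, 35 to 43 and 60 to 65 in the secretory class, 59 to 68 and 60 to 70 in the signalling class, and 105 to 111 and 78 to 88 in the metabolic class, and 26 named genes lost the call without some array. For the 9 chromosome blocks, with alternatives chosen after seeing the data, leaving out any 1 array gave medians of 0.66 to 1.25 in blocks of rises and -1.40 to -0.53 in blocks of falls, and the Rh41 scale 0.39 to 0.65 and -0.65 to -0.32. The counts over all and by class stayed within 1.5 times under the other alternatives.

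Arrays of the same replicate number had deviations that correlated at 0.08, 0.11 and 0.04, each above those of unlike numbers (0.04 at most), which is a hint from the data only, and the numbers were not taken to pair the cultures. With the replicate number as a block 1818 clusters rose, and 4 named genes lost the call. Low signal, judged by level alone, limits the size of 56 named changes in 1 group and of 8 in both.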
